A study of Homo sapiens with 35 samples.

Results

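The sodium channel cluster on chromosome 2 holds 5 genes for voltage-gated sodium channel alpha subunits and their relative, in the order SCN3A, SCN2A, SCN1A, SCN9A and SCN7A. Its lamina contacts were read in single human cells in bins of 100 kb. The cluster was taken by position alone as the 15 bins from 165900001 to 167400000 of chromosome 2 (hg19), out of 26584 bins with values in the genome and 2380 on chromosome 2. The flanks were the 20 bins before it (163900001 to 165900000, the left flank) and the 20 bins after it (167400001 to 169400000, the right flank), 2 Mb on each side. The cells were of 1 group, clone 5-5 of the leukaemia line KBM7, which is 1 clone and here diploid, and all carried the adenine methylase Dam fused to LaminB1. Shield1 at 0.5 nM, given for 15 h, stabilised the fusion protein. Cells with both Fucci cell-cycle markers were sorted, and of these the 2% smallest were taken. Of 35 labelled samples, 32 had a column in the table and 3 were not analysed here. Cells with the unfused methylase were not analysed here, so how openness of the DNA enters the values was not tested.

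In this assay (DamID), DNA that comes close to the nuclear lamina gains methyl groups at the letters GATC, and only methylated GATC sites are cut and amplified. The value of a bin in a cell is its observed over expected reads (OE), and an OE of 1 or more was counted as a contact. The contact frequency of a bin is the share of cells, in percent, that had it in contact, and the contact share of a cell over a region is the percentage of the bins of that region in contact. The cells are diploid and the marks gather over 15 h, so a contact may come from either copy and from any time in that period. The lamina is the protein mesh under the nuclear envelope, and long stretches of chromatin that hold few active genes are known to lie against it.

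The channels made from SCN3A, SCN2A, SCN1A and SCN9A open when the membrane depolarises and let sodium into excitable cells. SCN1A, SCN2A and SCN3A encode the main channels of brain neurons, and SCN9A encodes a channel of pain-sensing neurons. SCN7A encodes an atypical relative that takes part in sensing sodium levels in body fluid. RNA was not measured here, and KBM7 is a leukaemia line, not a line of neurons. All 5 genes were found in RefSeq's gene table, which is of another build (GRCh38.p14) than the bins, so it was used for gene order only and no gene was assigned to a bin. In that order SCN3A and SCN2A come first. They are followed by CSRNP3 (a nuclear protein), GALNT3 (an enzyme that starts mucin-type sugar chains) and TTC21B (a transport protein of cilia), and then by SCN1A, SCN9A and SCN7A. In all, 12 other genes were listed between SCN3A and SCN7A. Of these, 4 were protein-coding (those just named and LOC124906086), 5 long non-coding RNAs, 2 pseudogenes and 1 a small nucleolar RNA. The nearest protein-coding genes before SCN3A were GRB14, COBLL1 and SLC38A11, and those after SCN7A were XIRP2, B3GALT1 and STK39.

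The promoter sequences of the cluster differed widely in base composition, and they are shown because GATC is the only motif the assay can read. RefSeq's promoter table (GRCh38.p14) held entries for 4 of the 5 genes, SCN2A, SCN1A, SCN9A and SCN7A. The 250 bases before a listed start of each are given 5′ to 3′ on the strand of the gene, with GATC in capitals. For SCN2A, SCN1A and SCN7A this is the outermost start of the gene; the single start listed for SCN9A is not. In GRCh38.p14 they lie at chr2:165239164-165239413 (plus strand, SCN2A), chr2:166149162-166149411 (minus strand, SCN1A), chr2:166375945-166376194 (minus strand, SCN9A) and chr2:166494250-166494499 (minus strand, SCN7A). These positions cannot be set against the hg19 bins.
SCN2A: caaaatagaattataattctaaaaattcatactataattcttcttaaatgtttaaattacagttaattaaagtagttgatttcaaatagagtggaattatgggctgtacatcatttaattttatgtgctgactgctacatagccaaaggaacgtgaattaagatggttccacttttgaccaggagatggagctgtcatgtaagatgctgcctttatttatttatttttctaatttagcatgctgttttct
SCN1A: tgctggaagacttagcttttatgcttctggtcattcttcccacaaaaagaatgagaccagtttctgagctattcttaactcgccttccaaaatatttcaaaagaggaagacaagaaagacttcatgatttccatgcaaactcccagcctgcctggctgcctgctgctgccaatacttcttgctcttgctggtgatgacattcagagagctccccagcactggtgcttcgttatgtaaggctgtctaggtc
SCN9A: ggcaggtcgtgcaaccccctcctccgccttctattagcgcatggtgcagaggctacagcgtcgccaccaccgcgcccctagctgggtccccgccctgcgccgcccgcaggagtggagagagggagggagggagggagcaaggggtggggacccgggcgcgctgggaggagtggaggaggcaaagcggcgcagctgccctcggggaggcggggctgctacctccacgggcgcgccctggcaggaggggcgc
SCN7A: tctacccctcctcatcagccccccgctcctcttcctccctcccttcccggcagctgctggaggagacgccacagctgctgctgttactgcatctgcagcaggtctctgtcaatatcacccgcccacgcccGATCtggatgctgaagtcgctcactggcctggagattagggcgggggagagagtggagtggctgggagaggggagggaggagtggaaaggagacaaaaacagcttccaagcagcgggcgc

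The SCN2A window had 29.2% G and C and 1 CG pair, and the SCN1A window 45.6% and 2 CG pairs. The SCN9A window had 74.0% and 22 CG pairs, and the SCN7A window 62.4% and 10 CG pairs. Over all 35116 promoter windows of the same 250 bases, the median was 58.0% with 11 CG pairs. SCN2A and SCN1A thus lay below the median on both counts and SCN9A above it on both. The other listed windows of SCN2A, SCN1A and SCN7A, not shown, had 32%, 33.6% and 38.8% G and C. They held 1, 1 and 0 CG pairs, so the 2 SCN7A windows lay on opposite sides of the median in G and C. GATC, which reads the same on both strands, was found 1 time in the SCN7A window and in none of the other 6 windows listed for these genes (SCN2A, SCN1A and SCN7A have 2 listed starts each, and SCN9A has 1). Among all windows, 35.8% held it. This says only that these letters are absent from those windows, and a 100-kb bin holds many other sites.

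The number of reads recovered per cell had a median of 120164 (lowest 985, highest 258222). In 29 cells there were at least 40279 reads, and the other 3 (cells 13, 15 and 17) had at most 1755. In the 29 cells, 53 to 524 reads fell in the cluster (median 183), 1 read there was worth an OE of 0.0775 to 0.642, and no contact of the cluster rested on a single read. In the 3 shallow cells only 1 or 2 reads fell in the cluster and 1 read was worth an OE of 11.3 to 26.4, so that a single read there made a contact. Values are therefore given for all 32 cells and for the 29 deeper ones. The labels do not say whether the cells came from separate cultures. The p-values of comparisons between regions therefore measure only the spread between these cells. Those of single bins set the number of cells in contact against the contact shares of the same cells, and do not reach beyond them either.

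The cluster was in contact with the lamina far more often than the genome at large. In the 29 deeper cells its contact share was 33.3% in the lowest cell, 86.7% in the median cell and 100% in the highest. The share of chromosome 2 as a whole was 15.8%, 32.8% and 42.2% in the lowest, median and highest of these cells. The ranges overlapped, but within each cell the cluster was the higher. Over all 32 cells the cluster had a share of 69.6% ± 28.9 (SD, n = 32), against 29.7% ± 9.80 for the rest of chromosome 2 and 26.0% ± 7.96 for the bins of all other chromosomes. The differences were 39.9 ± 22.1 and 43.6 ± 23.7 percentage points (SD), and the cluster was higher in 32 of 32 cells in both comparisons. A two-sided sign-flip permutation test over cells gave an adjusted p of 2.25e-05 for each (unadjusted p = 1e-05, the smallest that 100000 resamples can give), with Benjamini-Hochberg adjustment over 9 such tests. In the 29 deeper cells the differences were 43.6 and 47.7 points, and the cluster was higher in all 29. In the 3 shallow cells the contacts of the cluster were 1 or 2 reads. The cluster was not higher in every cell under all settings. With an OE limit of 2 it was higher in 29 and lower in 3 cells against the rest of chromosome 2. Against the rest of the genome it was then higher in 28 and lower in 4. Against the rest of chromosome 2, mean OE gave 30 cells higher and 2 lower. Leaving out the first and last bin of the cluster gave 28 higher and 4 lower. Reads thinned to 40279 per cell, or leaving out bins with the fewest expected reads, each gave 1 cell lower.

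Bin by bin, 12 of the 15 bins of the cluster were in contact in more cells than the contact shares of the cells give (8.42 cells per bin), and no bin in fewer. The test was an exact two-sided Poisson-binomial test with Benjamini-Hochberg adjustment over all 26584 bins, at a threshold of 0.05. It called 30.3% of all bins in contact more often and 54.5% less often. The median contact frequency was 75.0% over the 15 bins, against 9.38% over the bins of chromosome 2 and 6.25% over all bins. A frequency of 75.0% or more was found in 19.8% of the bins of chromosome 2. All 20 bins of the left flank and 15 of the 20 bins of the right flank were also called more often, and 4 bins at the far end of the right flank less often. The cluster therefore lay inside a longer contacted stretch.

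That stretch reached well past the genes on both sides. In the 29 deeper cells, an unbroken row of bins at a frequency of 20% or more ran from 162900001 to 169000000, over 6.1 Mb, and all 15 bins of the cluster belonged to it. At a limit of 50%, and with 3 bins inside the cluster below that limit passed over, the stretch ran from 163700001 to 168900000, over 5.2 Mb. On the right it fell off over several bins. From 168700001 on, the number of deeper cells in contact went from 24 to 18, 8, 3 and 0 in successive bins, and the bins of the next 5 Mb (169000001 to 174000000) had a contact share of 1.72%.

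**Figure D1:**
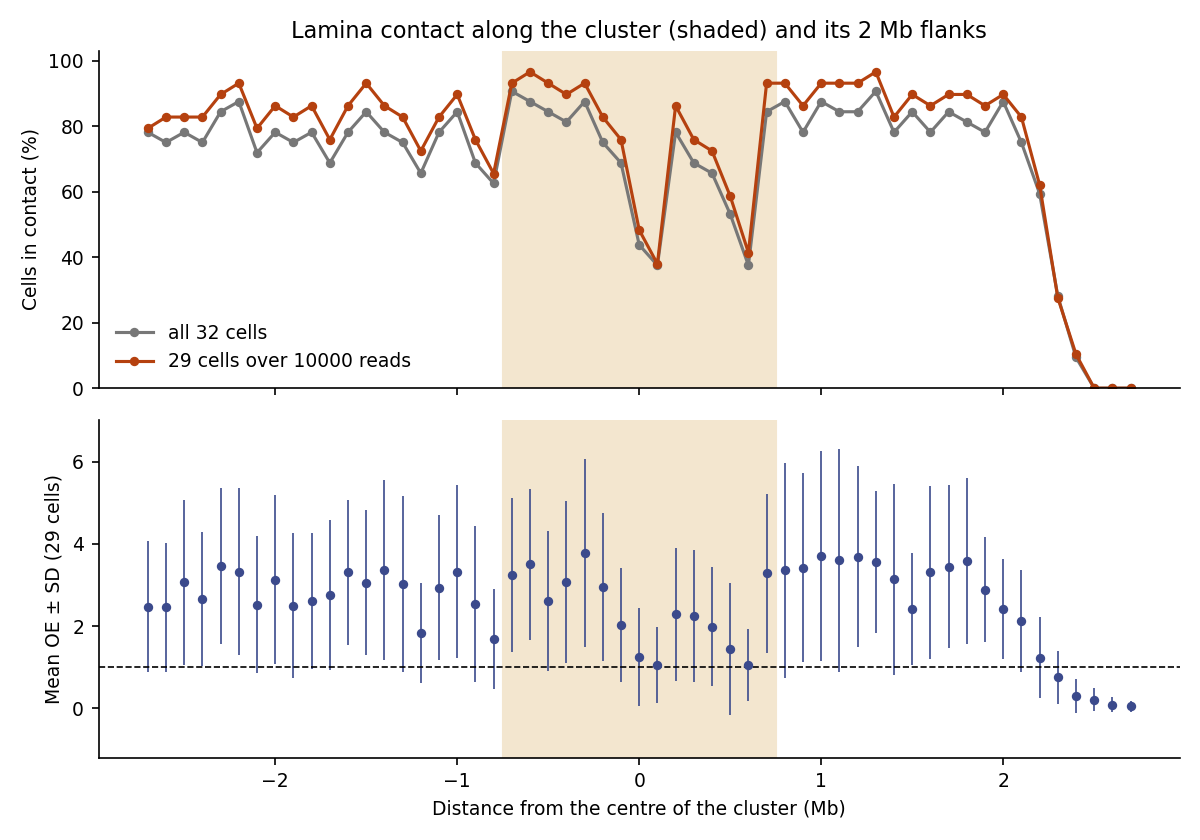
Upper panel: percentage of cells in contact (OE of 1 or more) per 100-kb bin against distance from the centre of the cluster in Mb, for all 32 cells (grey) and the 29 cells with over 10000 reads (red-brown). Lower panel: mean OE with SD over the 29 cells, with a dashed line at an OE of 1. The cluster is shaded. Within it the frequency falls to 37.9% at its ninth bin and to 41.4% at its fourteenth, and both times it is 86.2% or more in the next bin.

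Contact was not even along the cluster: it fell 2 times from the SCN3A end towards the SCN7A end, and each time it came back within 1 bin. The first 5 bins (165900001 to 166400000) were in contact in 27, 28, 27, 26 and 27 of the 29 deeper cells. The next 4 bins were in contact in 24, 22, 14 and 11 cells. The bin after them (166800001 to 166900000) was in contact in 25 cells. From there the number went to 22, 21, 17 and 12, and in the last bin of the cluster (167300001 to 167400000) it was 27. The 2 low points were thus bins 8 and 9 (166600001 to 166800000) and bins 13 and 14 (167100001 to 167300000), which were picked out after their values were seen and get no test of their own. In the test across all bins, bins 8, 9 and 14 were the 3 not called (adjusted p = 0.0525, 0.237 and 0.237, in 14, 12 and 12 of 32 cells), and bin 13 passed (adjusted p = 0.00236, 17 of 32 cells).

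The OE values had the same course. In bin 9 the OE over the 29 deeper cells was 0 in the lowest cell, 0.762 in the median cell and 3.73 in the highest. In bin 10 beside it these values were 0, 1.89 and 8.02. The ranges overlapped, with means of 1.05 ± 0.922 and 2.29 ± 1.61 (SD, n = 29). In bin 14 the OE was 0 in the lowest cell, 0.805 in the median cell and 3.35 in the highest, and in bin 15 it was 0, 3.04 and 10.03. The means of this pair were 1.06 ± 0.878 and 3.28 ± 1.93 (SD, n = 29), again with overlapping ranges. The 4 bins of the low points had mean OEs of 1.05 to 1.44, and the other 11 bins of the cluster 1.99 to 3.78. The reads expected at an OE of 1 and a depth of 126620 reads were 5.33 to 6.31 in the bins of the low points and 4.90 to 5.95 in the other bins, against a median of 5.2 over all bins.

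The rises at the ends of the low points were one-sided. The counts above nearly fix this. Bins 10 and 15 were in contact in 25 and 27 of the 29 deeper cells. Only few cells could therefore be in contact before those boundaries and not after them. At the boundary between bins 9 and 10, 14 of the 29 deeper cells were in contact only after it and 0 only before it. At the boundary between bins 14 and 15 it was 15 cells after and 0 before. The start of the cluster was another such step: 8 cells were in contact in its first bin but not in the last bin of the left flank, and 0 the other way round. That last flank bin was itself the lowest of its flank, in contact in 19 deeper cells, against 22 in the bin before it. Boundaries inside the flanks were not counted. Between the last bin of the cluster and the first bin of the right flank, 0 cells changed state. The falls before the low points were spread over several bins, with at most 9 cells losing contact at any 1 boundary. At these boundaries cells changed both ways: 9 cells were in contact only before the one between bins 7 and 8 and 1 only after it, and between bins 12 and 13 it was 7 and 3 cells.

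**Figure D2:**
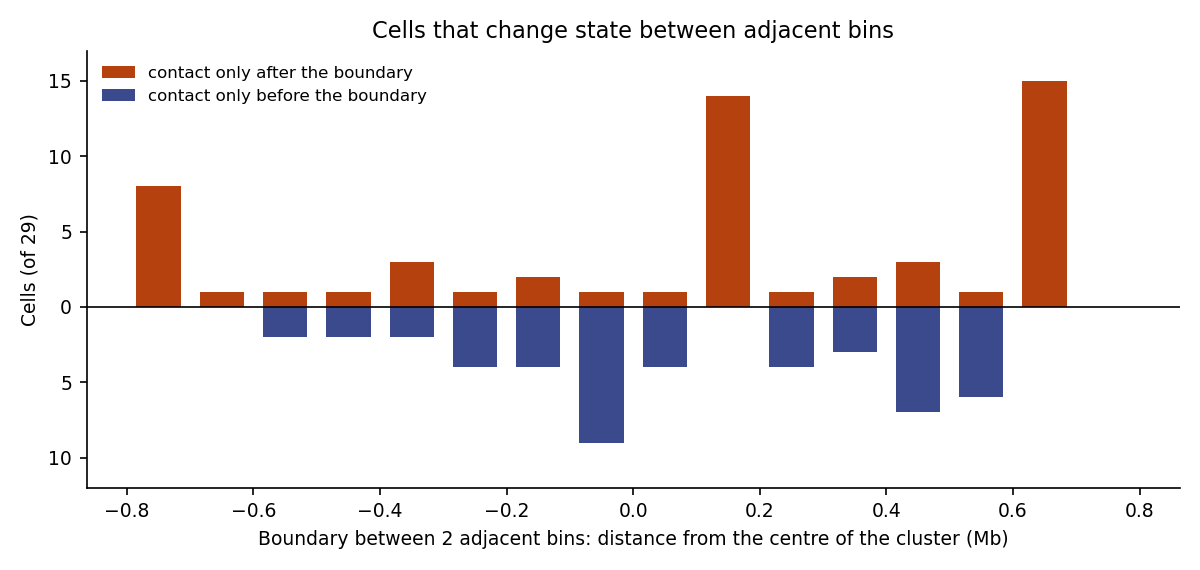
Number of the 29 deeper cells that change contact state at each boundary between adjacent bins, against distance of the boundary from the centre of the cluster in Mb. Bars upwards (red-brown) count cells in contact only after the boundary, and bars downwards (blue) cells in contact only before it. The tallest bars, of 14 and 15 cells, stand at the ends of the low points and have no bar below them.

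Cut by position into 3 segments of 5 bins, the cluster was in contact most often in its first segment, at the SCN3A end. The low points (bins 8, 9, 13 and 14) all fall in the middle and last segments. In the 29 deeper cells they had a mean share of 46.6%, against 86.5% for the other 11 bins. The first and the last bin of the cluster were each in contact in 27 of these cells. The segment tests therefore do not show a gradient between the ends. In the 29 deeper cells the first segment (165900001 to 166400000) had a share of 60.0% in the lowest cell and 100% in the median and highest cells, and 21 cells had all 5 bins in contact. The middle segment (166400001 to 166900000) had a share of 0% in the lowest cell, 60.0% in the median cell and 100% in the highest, with all 5 bins in contact in 10 cells. The last segment (166900001 to 167400000) had shares of 20.0%, 80.0% and 100%, also with 10 such cells. Over all 32 cells the first segment exceeded the middle segment by 25.6 ± 26.5 points (SD, n = 32; higher in 20 cells, lower in 1) and the last segment by 24.4 ± 22.0 points (higher in 20, lower in 0). Both differences passed the sign-flip permutation test (adjusted p = 2.25e-05 each). The middle and last segments differed by -1.25 ± 21.5 points, with 8 cells in each direction, and did not pass (adjusted p = 0.981).

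The segments also differed in OE. The mean OE of the 29 deeper cells was 3.24 ± 1.56 in the first segment, 1.91 ± 1.16 in the middle segment and 2.00 ± 1.24 in the last (SD, n = 29). With any read counted as a contact, the first segment exceeded the middle segment by only 5.63 points (adjusted p = 0.0414) and the last segment by 8.13 points (adjusted p = 0.00680), with reads missing from bin 9 in 4 and from bin 14 in 5 of the 29 cells. Of the 435 pairs of a bin of the cluster and a deeper cell, 330 were contacts, 82 had reads below an OE of 1 and 23 had no read.

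**Figure D3:**
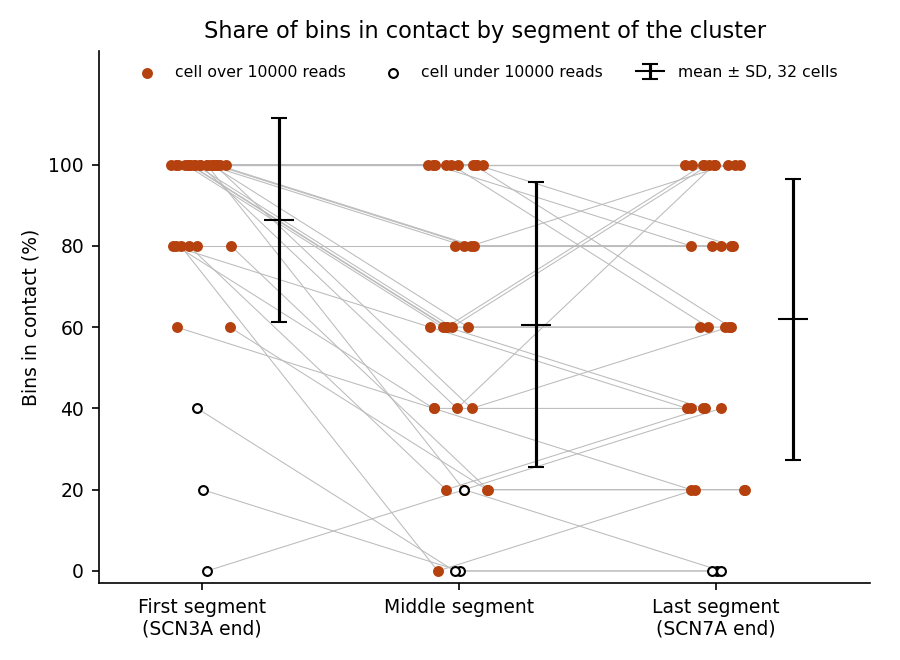
Percentage of the 5 bins in contact in each segment of the cluster, for each of the 32 cells (filled points, cells with over 10000 reads; open points, the 3 shallow cells; lines join the values of a cell). Black bars give the mean and SD over 32 cells, which are 86.3%, 60.6% and 61.9% from left to right; an SD bar can pass 100%. In the first segment 21 of the 29 deeper cells are at 100%.

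Set against its flanks, the cluster had a similar share on average, but this balance depended on where the flanks ended. The share of both flanks together was 69.5% ± 24.7 (SD, n = 32), and the difference of 0.0521 ± 14.5 points did not pass (adjusted p = 0.992; higher in 20 cells, lower in 12). The left flank had a share of 76.3% ± 29.8, and the cluster minus it came to -6.67 ± 14.6 points (lower in 19 cells, higher in 9; adjusted p = 0.0234). The right flank had 62.8% ± 22.8, and the cluster was 6.77 ± 19.8 points above it (higher in 20 cells, lower in 12), which did not pass (adjusted p = 0.0835) and did pass in the 29 deeper cells (8.28 points, adjusted p = 0.0466). The left flank was above the right flank, by 13.4 ± 19.2 points (higher in 25 cells, lower in 6; adjusted p = 0.000972).

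The right flank contained the end of the contacted stretch. In the 29 deeper cells its first 15 bins (to 168900000) had a share of 87.6% and its last 5 bins 7.59%. Against flanks of 1 Mb, which end before that drop, the difference of the cluster was -9.48 points (lower in 22 cells, higher in 6; adjusted p = 0.00179), and against the 1-Mb right flank alone -14.2 points (lower in 24, higher in 3; adjusted p = 0.00124). Against flanks of 5 Mb it was 28.5 points higher (higher in 29, lower in 3; adjusted p = 1.29e-05). The difference from the left flank did not pass under 5 of the 11 alternative settings and turned to 13.9 points above it with flanks of 5 Mb.

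**Figure D4:**
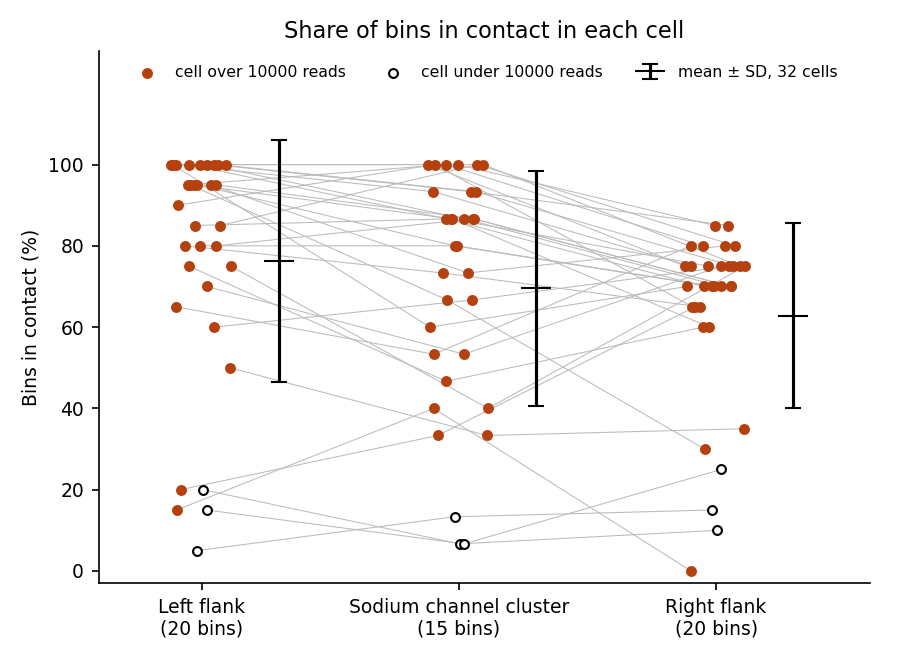
Percentage of bins in contact in the left flank, the cluster and the right flank (2 Mb each side) for each of the 32 cells (filled points, cells with over 10000 reads; open points, the 3 shallow cells; lines join the values of a cell). Black bars give the mean and SD over 32 cells, 76.3%, 69.6% and 62.8% from left to right; an SD bar can pass 100%. No cell passes 85.0% in the right flank, whose last bins lie beyond the contacted stretch.

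Cells differed from each other in how much of the cluster they held at the lamina. All 15 bins were in contact in 6 of the 29 deeper cells (cells 3, 7, 10, 20, 24 and 28), at least 12 bins in 17 cells and fewer than 8 in 5 cells. The fewest were 5 bins, in cells 8 and 19. The contacts of a cell formed 1 to 5 separate runs in the cluster, with a median of 2. Among these 29 cells, the longest run of contacted bins that touched the cluster was 0.2 Mb in cell 19, 2.4 Mb in the median cell and 6.2 Mb in cell 7.

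At an OE limit of 1, both low points counted as in contact in some cells and not in others. The median OE of bins 8, 9, 13 and 14 over the 29 deeper cells was 0.880, 0.762, 1.125 and 0.805, close to that limit. An OE of 1 in these bins is 5.33 to 6.31 reads at a depth of 126620 reads. At an OE limit of 0.5, all 15 bins of the cluster were called more often. How far the states of single cells reflect small read counts was not tested. Bins 8 and 9 were both in contact in 10 of the 29 deeper cells, neither was in 14, and 1 of the pair in 5. Bins 13 and 14 were both in contact in 11 cells, neither was in 11, and 1 of the pair in 7. All 4 bins were in contact in 6 cells and none of the 4 in 8 cells. In 4 cells bins 8 and 9 were without contact and bins 13 and 14 in contact, and in 2 cells it was the reverse. The other 11 bins of the cluster were each in contact in 21 to 28 of the cells.

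Single cells could also hold the cluster and its flanks in different states. In cell 5, 6 of the 15 bins of the cluster were in contact, 3 of them in the first segment, while 3 of 20 bins of the left flank and 0 of 20 of the right flank were. The mean OE of this cell was 0.972 in the cluster and 0.249 over both flanks. In cell 8 the left flank had 4 of 20 bins in contact, the cluster 5 of 15 and the right flank 13 of 20. In cell 27 the order was the other way, with 19 of 20, 10 of 15 and 6 of 20. Cell 25 had 15 of 20 bins in contact in each flank and 6 of 15 in the cluster. These 4 cells were chosen after their values were seen.

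**Figure D5:**
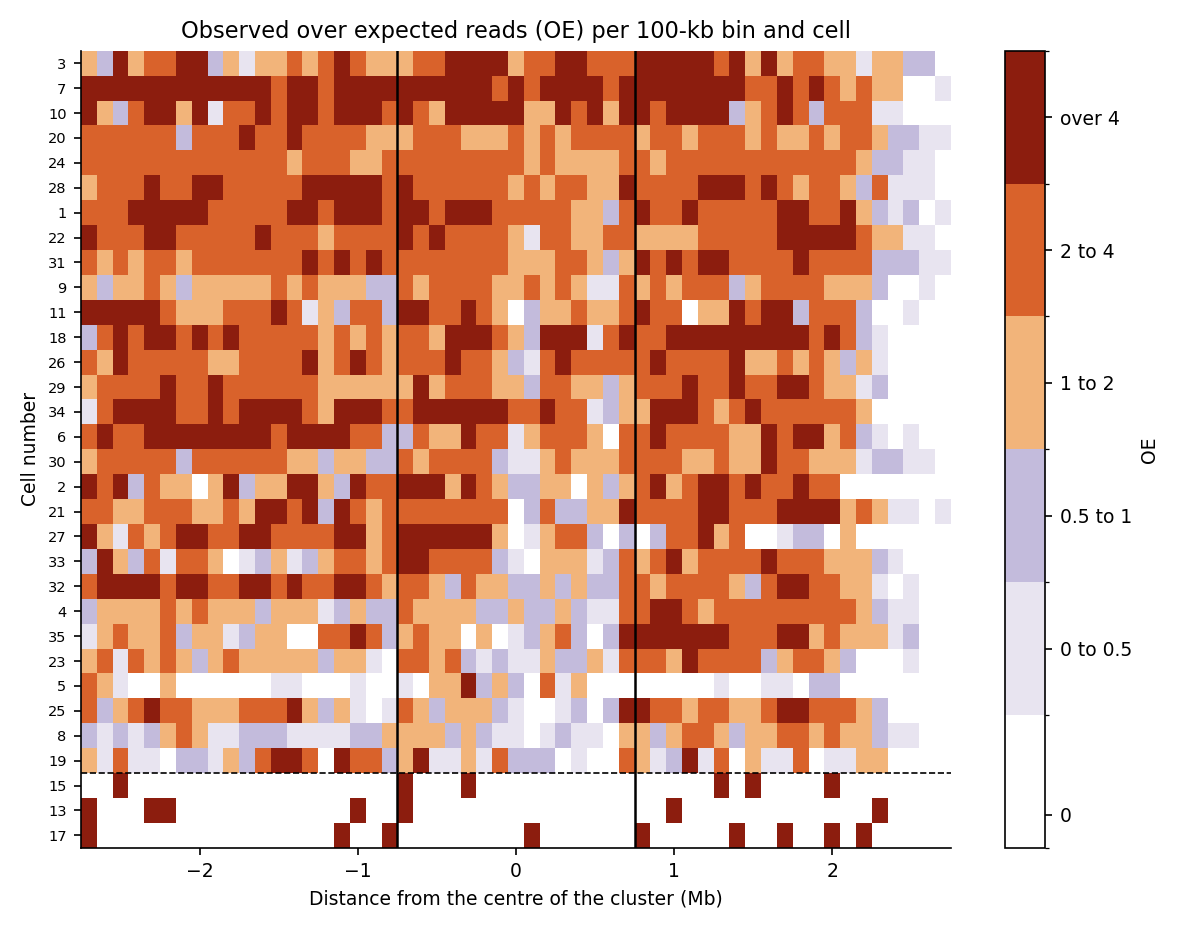
OE per 100-kb bin (columns, distance from the centre of the cluster in Mb) in each of the 32 cells (rows, cell numbers), in 6 classes from 0 (white) to over 4 (dark red); orange and red classes are contacts. Vertical lines mark the cluster, and the dashed line separates the 3 shallow cells, whose few bins with reads are all over 4. Cells are ordered by the number of bins of the cluster in contact, from 15 to 5 in the 29 deeper cells, and the paler columns within the cluster are the low points.

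Over the 29 deeper cells, the contact share of the cluster moved together with that of its surroundings. Pearson's r was 0.774 with the left flank (Spearman's rho 0.710, and r 0.730 without the 2 cells farthest from the median of the left flank) and 0.513 with the right flank (rho 0.480). The flanks had an r of 0.579 with each other (rho 0.384). With the genome-wide share of each cell subtracted from both, r was 0.749 for the left flank and 0.433 for the right flank. Within the cluster, r was 0.592 between the first and middle segments, 0.738 between the middle and last and 0.715 between the first and last. These values are descriptions over 29 cells, which share library and depth between the regions compared. The share of the cluster had an r of 0.181 with log10 reads and 0.413 with the genome-wide contact share.

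The surroundings of the cluster were left out of a search for stretches that moved like it, and the 5 most alike lay on chromosomes 1, 2, 11 and 13. Among 5067 windows of 15 adjacent bins, more than 5 Mb from the cluster where on chromosome 2, the highest correlation over the 29 cells (shares with the genome-wide share subtracted) was on chromosome 11, at 96100001 to 97600000 (r = 0.659, rho = 0.544). Next came chromosome 2 at 209100001 to 210600000 (r = 0.642, rho = 0.550), chromosome 1 at 74200001 to 75700000 (r = 0.622, rho = 0.520) and chromosome 13 at 70500001 to 72000000 (r = 0.612, rho = 0.441). The fifth was again on chromosome 11, at 98100001 to 99600000 (r = 0.560, rho = 0.225). The median over all windows was -0.0995. The 15 bins just before the cluster had an r of 0.738 in this measure and the 15 bins just after it 0.406. The 5 windows were taken as the highest of many, so their r is a description and no sign of a link. All of them were contacted often, with shares of 71.7 to 85.8% in the 29 cells.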

How the data were processed

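The authors deposited 1 table of ratios of observed to expected reads (OE) per 100-kb bin and cell, per the file headers. Cutadapt, Bowtie2 2.1.0 and hg19 appear in the submitters' processing notes; the making of the expectation and the handling of duplicates are not stated in the sources used here. Of 30376 bins, 26584 had values and were used. Within a bin and cell, values stepped by what 1 read is worth, which gave the reads per cell (tolerance 0.01 reads); PCR reads are not independent molecules. The members and the tests were chosen with earlier results of these data known. Named were the 5 genes, the protein-coding genes between them, the 3 nearest protein-coding genes on each side, every bin of the cluster and the 5 windows most alike. Other genes between the 5 were only counted. Tests per bin were exact Poisson-binomial tests across all bins (2 times the smaller tail), and regions were compared by sign-flip permutation tests over cells (100000 resamples), all two-sided with Benjamini-Hochberg adjustment. The scripts were tested on simulated data. Python 3.11.15, NumPy 2.4.6, SciPy 1.17.1 and pandas 2.3.3 were used. Alternatives changed the OE limit, the cells, the depth, the measure, the bins, the flank length and the edges.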

Additional observations from a re-analysis of the deposited data

How the results depend on the processing

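Of 102 values recomputed, 74 were counted as unchanged. For a comparison of regions this means the same direction and the same side of the test's threshold. A count of bins called more often had to be near the main count of 12. A count of bins called less often had to equal the main one. Among the 74 were every value of the cluster against the rest of chromosome 2 (27.4 to 43.6 points) and the rest of the genome (30.2 to 47.7 points). So were those of the first segment against the others, and the counts of bins called (11 to 15 more often, 0 less often). Leaving out bins with the fewest expected reads removed none of the 15 bins of the cluster. The values among cluster, flanks and segments then equalled the main ones, so they were no separate check. The values that moved were those of the comparisons with and between the flanks and of the middle minus the last segment (-1.25 points). The cause was not tested except where flank length is itself the change. With an OE limit of 0.5 the cluster was -3.75 points from the left flank (adjusted p = 0.0585) and 10.9 from the right (adjusted p = 0.000576), and the middle minus the last segment was 0.625. With a limit of 2 the cluster was -5.57 points from both flanks and -0.885 from the right, and the left minus the right flank was 9.38 (adjusted p = 0.0816). With any read counted these were 4.01 points from both flanks (adjusted p = 0.0231), -1.93 from the left (adjusted p = 0.251) and 9.95 from the right (adjusted p = 0.00036), and 2.50 for the middle minus the last segment. In the 29 deeper cells the cluster was 8.28 points above the right flank (adjusted p = 0.0466), and without the 8 cells with the fewest reads it was -6.04 points from the left (adjusted p = 0.0802). Thinned to 40279 reads, it was -5.17 points from the left (adjusted p = 0.134) and 9.66 from the right (adjusted p = 0.0245). In mean OE, the cluster was -0.292 from both flanks and -0.0922 from the right, and the left minus the right flank was 0.400 (adjusted p = 0.0720). With flanks of 1 Mb the cluster was -9.48 points from both, -4.79 from the left (adjusted p = 0.139) and -14.2 from the right, and the left minus the right flank was -9.38 (adjusted p = 0.0397). With flanks of 5 Mb it was 28.5 points from both, 13.9 from the left and 43.1 from the right. Without the first and last bin of the cluster, it was -2.70 points from both flanks, and the middle minus the last segment was 0.781. With the right flank ended at 168900000, chosen after the data were seen, it was -8.81 points from both and -11.7 from the right. Under another definition of the two-sided p, also added later, 13 bins of the cluster were called in place of 12. Regions were compared within each cell throughout. No paired analysis was possible between groups of samples, because all cells belong to 1 group.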
